A study of Mus musculus with 4 samples.

Results

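This report covers 10 genes of the fibroblast growth factor (FGF) system in mouse fibroblasts, namely 6 ligand genes (Fgf1, Fgf2, Fgf7, Fgf10, Fgf18 and Fgf21) and 4 receptor genes (Fgfr1, Fgfr2, Fgfr3 and Fgfrl1). They were taken by symbol, as FGFs of mesenchyme and FGF receptors, with earlier results of these data known. All 10 had a probe set on the array, 19 probe sets in all, out of 18193 genes with a named probe set. SMRTmRID cells and wild-type cells, 2 Affymetrix arrays each, were compared. Both are 3T3-MEFs, embryonic fibroblasts carried by serial passage into a permanent line, here from SMRT RID mutant mice and from wild-type mice. The SMRT protein represses genes when unliganded nuclear receptors bring it to them, and mRID cells carry mutated receptor interaction domains in it. Cells of both genotypes were undifferentiated and confluent at harvest. The comparison asks how the mutant cells differ before adipogenic differentiation. The labels call the 2 arrays of a genotype technical replicates, so every p-value below measures the spread between repeated arrays. How many lines, embryos or cultures stand behind each genotype is not given in the sources used here, and an effect of the genotype and a difference between the cell lines cannot be told apart. The transcript of the corepressor was not analysed here, so the genotype labels were not checked against it.

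FGFs are secreted proteins that bind receptor tyrosine kinases together with heparan sulfate and activate the Ras-ERK cascade through adaptor proteins. Mesenchymal FGF7 and FGF10 classically act on the IIIb splice form of FGFR2 on neighbouring epithelium, whereas mesenchymal cells themselves mostly carry IIIc forms of FGFR1 and FGFR2. FGF21 is an endocrine member that needs a Klotho co-receptor, and FGFRL1 binds FGFs but lacks a tyrosine kinase domain.

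Of the members, Fgf7 and Fgfr1 rose in SMRTmRID cells and Fgfr2 fell. The upstream sequences of Fgf7 and Fgfr2, the called members with an entry in the RefSeq promoter table (build GRCm38.p6), are shown because the mutation affects a corepressor of nuclear receptors. Each run covers the 250 bases before the annotated start, 5′ to 3′ on the gene's strand, and capitals mark AGGTCA, a hexamer that many nuclear receptors bind.
Fgf7, chr2:126034408-126034657, plus strand: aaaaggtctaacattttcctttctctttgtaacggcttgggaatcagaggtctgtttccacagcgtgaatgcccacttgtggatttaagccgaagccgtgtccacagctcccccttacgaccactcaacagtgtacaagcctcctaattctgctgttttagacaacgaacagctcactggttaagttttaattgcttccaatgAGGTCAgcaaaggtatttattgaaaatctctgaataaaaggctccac
Fgfr2, chr7:130266809-130267058, minus strand: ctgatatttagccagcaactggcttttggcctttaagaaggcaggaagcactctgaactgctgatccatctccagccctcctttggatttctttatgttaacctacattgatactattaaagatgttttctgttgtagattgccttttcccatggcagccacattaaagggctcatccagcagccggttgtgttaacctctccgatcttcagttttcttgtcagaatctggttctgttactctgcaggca
AGGTCA was searched on both strands. The Fgf7 window holds 1 match, from 47 to 42 bases before the start, and the Fgfr2 window holds none. Of 9 windows found for 8 members, the Fgf7 window alone had a match, and 14.0% of all 32851 promoter windows of that length have at least 1. A direct repeat of the hexamer with a spacer of 1 base was in 0 of the 9 windows and in 0.0335% of all windows. The windows of Fgf7 and Fgfr2 had a G+C content of 43.6% and 44.0%, while those of the other members lay between 59.6% and 77.2%, against a median of 52.4% over all windows. A match is a description of the letters and not a measured binding site.

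The series as a whole differed widely between the genotypes, which sets the scale for the members. Of 11057 genes above a filter on mean signal (35.1, the median of all values), 65.2% passed the test (limma, Benjamini-Hochberg adjusted p under 0.05), with 30.3% higher and 35.0% lower in SMRTmRID. Of the calls, 46.4% were higher, and 34.3% after each array was centred on the median of all its probe sets. That centring moved the median log2 difference of the tested genes to -0.21, against -0.05 without it, a shift of -0.16. Each difference is that of SMRTmRID from wild-type in log2(signal + 16), a scale on which changes of low signals come out too small. Repeated arrays differed by a median of 0.0987 on the log2 scale in SMRTmRID and 0.0983 in wild-type cells, and the genotypes by 0.43. All 9 fibroblast markers were above the filter, of which 4 rose, 4 fell and 1, the collagen gene Col1a1, did not pass. In a fit without a filter 5 of the 9 were called, and Col1a2, Vim and P4hb were not (limma adjusted p = 0.0584, 0.105 and 0.125). They summed to 82863 to 87681 in SMRTmRID and 77994 to 79621 in wild-type cells. Lum, the gene of a matrix proteoglycan, differed most, with 190 and 176 in SMRTmRID and 3.25 and 3.05 in wild-type cells. Lum was above the filter only through its SMRTmRID arrays. Of 6 leukocyte markers 3 were above the filter and 2 of these rose. Of the 2, Lyz2 was above the filter only through its SMRTmRID arrays, with 105 and 95.3 against 27.4 and 15.6 in wild-type cells. Both SMRTmRID arrays exceeded both wild-type arrays for 4 of the 6, while Cd68 was lower and Adgre1 overlapped. The 6 summed to 388 to 391 in SMRTmRID and 247 to 267 in wild-type cells. Cd14, the other of the 2 that rose, was the largest part. Its signals were 209 and 198 in SMRTmRID and 157 and 141 in wild-type cells. The 5 endothelial markers summed to 74.8 to 80.5 in SMRTmRID and 73.3 to 78.5 in wild-type cells, and none was above the filter. The 4 adipocyte markers summed to 46.1 to 63.0 and 32.1 to 52.0, again with none above it. The 5 skeletal muscle markers summed to 93.1 to 106 in SMRTmRID and 57.0 to 93.7 in wild-type cells. Ttn alone was above the filter and did not pass. Without a filter 2 of the 5, Myog and Des, rose (limma adjusted p = 0.0134 and 0.0412).

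**Figure D1:**
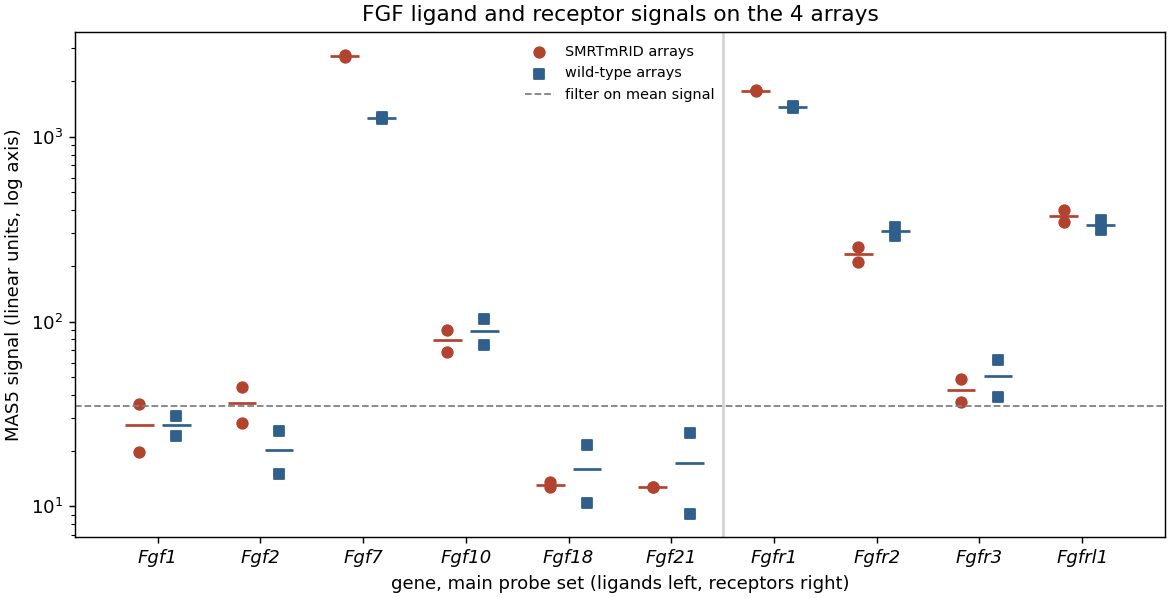
MAS5 signal (linear units on a log axis) of the main probe set of each of the 10 members, with 1 point per array, SMRTmRID left of wild-type, and a bar at the mean of 2 arrays. The dashed line is the filter at 35.1. Signals compare genotypes within a gene and not 1 gene with another. The Fgf7 arrays of SMRTmRID stand above those of wild-type, the Fgfr2 arrays below, and Fgf1, Fgf2, Fgf18 and Fgf21 have mean signals under the line.

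Against that background, 6 members had a mean signal above the filter and 3 of them passed the test. Without a filter all 10 members could be tested, and the same 3 members were called, 30% of 10, against 37.6% of all 18193 genes. For 4 of 10 members no SMRTmRID array lay within the wild-type range or the reverse, against 64.8% of all named genes and 81.5% of the tested ones. The members as a group thus did not stand above the other genes in the share that changed. Their median log2 difference was 0.02 over the 6 tested, against -0.05 over all tested genes. Fgfr3 (mean signal 46.6) was the member nearest above the filter and Fgf2 (28.2) the nearest below it.

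Among the ligands, Fgf7 was about 2-fold higher in SMRTmRID cells. Fgf7 encodes keratinocyte growth factor, a mesenchymal signal to epithelial cells. Its main probe set gave signals of 2695 and 2758 in SMRTmRID and 1251 and 1284 in wild-type cells. Every SMRTmRID array was clearly brighter than either wild-type array. The log2 difference was 1.10 ± 0.05 (SE; 95% interval 0.99 to 1.20; limma adjusted p = 7.54e-08), a 2.14-fold rise on that scale. A second Fgf7 probe set gave 2549 and 2439 in SMRTmRID and 958 and 1022 in wild-type cells, again without overlap. Tested on its own among 20080 probe sets above the filter, of which 61.1% passed, it rose by 1.32 ± 0.06 (SE, limma adjusted p = 1.48e-07). A log2 difference of at least 1 in either direction was found in 16.5% of the tested genes. The call held under all 15 other settings, with log2 differences from 0.93 to 1.21.

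The genes closest to Fgf7 over the 4 log2 values, by Euclidean distance, were Myl12b, a myosin regulatory light chain gene, Emc2, a subunit gene of the endoplasmic reticulum membrane complex, and Fndc3b. Their distances were 0.100, 0.175 and 0.179, and their log2 differences were 1.04, 0.98 and 0.96. With 4 arrays in 2 groups such likeness describes level and size of the difference only.

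Fgf10, a relative of Fgf7 that uses the same receptor form, did not pass the test. Its signals were 68.7 and 90.2 in SMRTmRID and 103 and 74.4 in wild-type cells. The arrays of the genotypes interleaved. The log2 difference was -0.13 ± 0.21 (SE; 95% interval -0.59 to 0.34; limma adjusted p = 0.614), so a change of the size seen for Fgf7 lies outside the interval. Its direction depended on single arrays and turned to 0.04 without SMRTmRID replicate 1 and to 0.07 without wild-type replicate 1.

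The remaining ligand genes lay below the filter and were not part of the main test. Fgf2, the basic FGF gene and a broad fibroblast mitogen, had signals of 44.1 and 28.2 in SMRTmRID and 15.0 and 25.6 in wild-type cells. The groups did not overlap, by a margin smaller than the gap between the arrays of either genotype. Its log2 difference of 0.52 did not pass in the fit without a filter (limma adjusted p = 0.258). Fgf1, the acidic FGF gene, had signals of 19.7 and 35.7 in SMRTmRID and 24.1 and 30.8 in wild-type cells on the brightest of its 3 probe sets. All 3 overlapped between the genotypes, with log2 differences from -0.31 to -0.01. Fgf18, which acts on cartilage and bone, had 12.8 and 13.5 in SMRTmRID and 10.4 and 21.4 in wild-type cells. Fgf21, the metabolic hormone gene, had 12.7 on both SMRTmRID arrays and 9.12 and 25.1 on the wild-type arrays. For Fgf18 and Fgf21 the wild-type arrays lay on either side of both SMRTmRID arrays. Their log2 differences of -0.11 and -0.16 did not pass without a filter (limma adjusted p = 0.819 and 0.752). Detection calls were not used here.

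**Figure D2:**
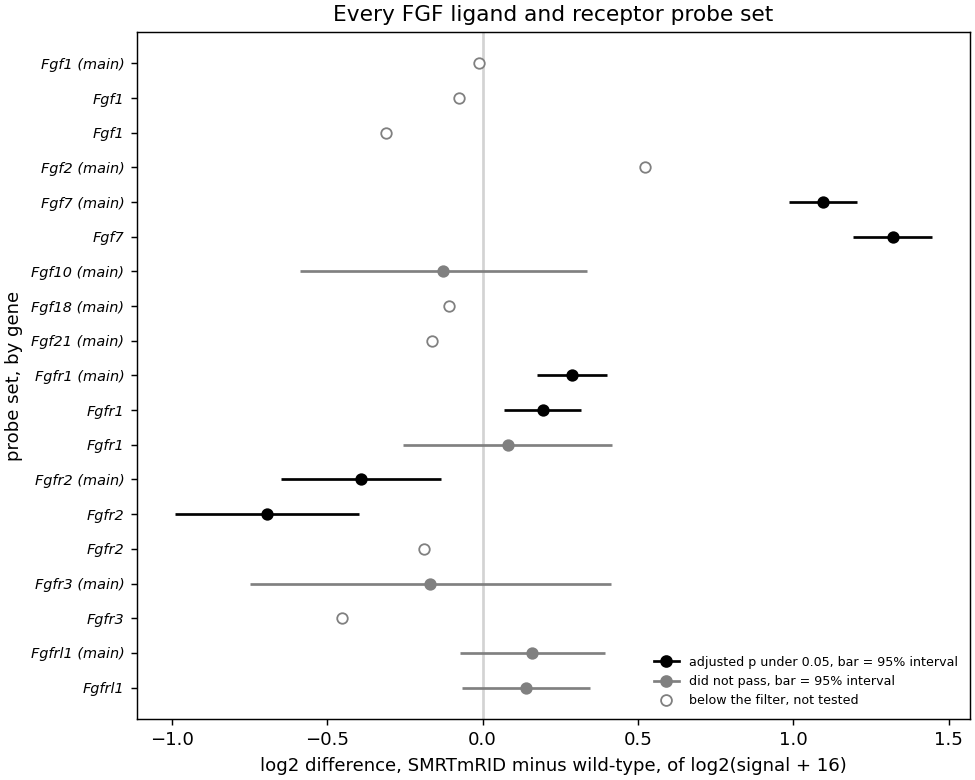
Log2 difference (SMRTmRID minus wild-type) of each of the 19 probe sets of the members, with the 95% interval from limma where the probe set was above the filter. Black points passed at an adjusted p under 0.05, grey points did not, and open points were below the filter. Both Fgf7 probe sets lie right of 0 and the brighter pair of Fgfr2 probe sets left of it.

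The receptor genes divided. Fgfr1, the main FGF receptor gene of fibroblasts, was slightly higher in SMRTmRID cells, with signals of 1756 and 1794 against 1469 and 1432 in wild-type cells. The arrays did not overlap, and the log2 difference was 0.29 ± 0.05 (SE; 95% interval 0.18 to 0.40; limma adjusted p = 0.00057), a 1.22-fold rise. A second probe set had 1443 and 1488 in SMRTmRID and 1245 and 1315 in wild-type cells. It rose by 0.19 ± 0.05 (SE, limma adjusted p = 0.0128), but lost the call when SMRTmRID replicate 2 was left out (adjusted p = 0.0643) or wild-type replicate 1 (0.0737). The remaining, dimmer probe set overlapped between the genotypes, at 107 and 114 in SMRTmRID and 110 and 98.5 in wild-type cells. Relative to the shift of -0.16 that median centring gave, the main probe set's difference was 0.13 and did not pass (limma adjusted p = 0.288), nor did the second at 0.03 (0.814). It passed when arrays were centred over the tested genes alone, where that shift was -0.01. As the mean over all 3 probe sets it was 0.19 and passed (adjusted p = 0.022). Quantile normalization gave a larger difference of 0.38, which passed (limma adjusted p = 6.88e-05). The call of Fgfr1 held under 14 of the 15 other settings and was lost with median centring over all probe sets. To that extent it depended on the scaling of the arrays.

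Fgfr2, the receptor gene whose IIIb form answers to FGF7 and FGF10, was lower in SMRTmRID cells. Its main probe set had signals of 254 and 209 in SMRTmRID and 323 and 292 in wild-type cells. The arrays did not overlap. The log2 difference was -0.39 ± 0.11 (SE; 95% interval -0.65 to -0.13; limma adjusted p = 0.013), and the signal was 1.31-fold higher in wild-type cells on that scale. It was -0.26 without SMRTmRID replicate 2 (adjusted p = 0.0854) and -0.32 without wild-type replicate 1 (adjusted p = 0.0717), and did not pass in either case. A second probe set showed a wider gap, with 134 and 153 in SMRTmRID and 266 and 219 in wild-type cells. It fell by 0.69 ± 0.13 on the log2 scale (SE, limma adjusted p = 0.00143) and passed with any 1 array left out, with values from -0.83 to -0.56 and adjusted p at most 0.00873. That probe set, like the main ones of Fgfr1 and Fgfrl1, is of the class that can share probes with other transcripts. The remaining probe set had signals of 3.18 to 11.7 over the 4 arrays and overlapped. The probe sets were not matched to exons here, so IIIb and IIIc forms were not told apart.

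Epithelial genes were measured beside Fgfr2, because the IIIb form belongs to epithelium. Esrp1 and Esrp2, splicing regulators that favour that form, were both below the filter. Esrp1 had signals of 0.705 and 2.12 in SMRTmRID and 2.19 and 0.889 in wild-type cells. Esrp2 had 30.7 and 16.5 in SMRTmRID and 40.5 and 30.3 in wild-type cells. Of 6 epithelial markers, Epcam alone was above the filter, at 137 and 132 in SMRTmRID and 187 and 171 in wild-type cells, and it fell (log2 difference -0.37, limma adjusted p = 0.0249; 0.0548 in the fit without a filter). The Epcam probe set, too, is of a class that can share probes with other transcripts. Cdh1, the E-cadherin gene, was below the filter, with 2.41 and 1.61 in SMRTmRID and 55.9 and 42.3 in wild-type cells. Without a filter Cdh1 fell (limma adjusted p = 0.00148). The other 4, Krt8, Krt14, Krt18 and Cldn7, were also below the filter and had log2 differences of 0.12 to 0.40, none of which passed without a filter (limma adjusted p from 0.55 to 0.795). The 6 markers summed to 235 to 236 in SMRTmRID and 287 to 306 in wild-type cells, with Epcam the largest part. Their part in the lower Fgfr2 signal was not tested. In these bulk samples, fewer cells of a type and less RNA per cell cannot be told apart.

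Fgfr3, a receptor gene prominent in cartilage, did not pass. It had signals of 36.6 and 48.8 in SMRTmRID and 61.8 and 39.3 in wild-type cells, and the groups overlapped. The log2 difference was -0.17 ± 0.27 (SE; 95% interval -0.77 to 0.43; limma adjusted p = 0.603), and 0.08 without wild-type replicate 1. The 5 chondrocyte markers summed to 371 to 406 in SMRTmRID and 2815 to 2923 in wild-type cells. Among them the cartilage collagen gene Col2a1 had 46.1 and 29.3 in SMRTmRID and 2555 and 2703 in wild-type cells, and it made up most of the wild-type sum. Sox9, a chondrocyte transcription factor gene, rose (limma adjusted p = 0.0101). Col9a1, a collagen gene below the filter, had 49.0 and 63.4 in SMRTmRID and 7.58 and 12.3 in wild-type cells, Matn1 was also higher on both SMRTmRID arrays, and the arrays overlapped for Acan. Their part in the Fgfr3 signal was not tested. A second Fgfr3 probe set, at 8.29 and 26.5 in SMRTmRID and 30.8 and 25.3 in wild-type cells, was below the filter.

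Fgfrl1, the kinase-less receptor gene, did not pass. Its main probe set had 402 and 345 in SMRTmRID and 311 and 354 in wild-type cells, with overlap. The log2 difference was 0.16 ± 0.10 (SE; 95% interval -0.07 to 0.39; limma adjusted p = 0.197), and median centring put it at -0.0029. Leaving out 1 array gave 0.05 (without SMRTmRID replicate 1), 0.27 (without SMRTmRID replicate 2), 0.07 (without wild-type replicate 1) and 0.25 (without wild-type replicate 2), none of which passed. A second probe set gave 0.14 (limma adjusted p = 0.218), with 344 and 321 in SMRTmRID and 287 and 315 in wild-type cells, where the arrays did not overlap.

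**Figure D3:**
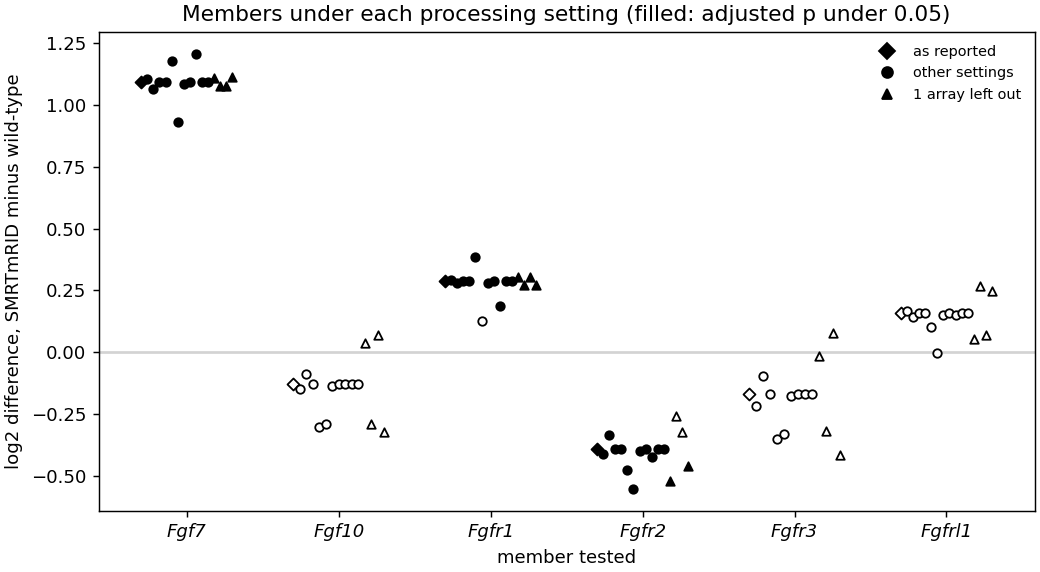
Log2 difference (SMRTmRID minus wild-type) of the 6 members above the filter, as reported (diamonds), under other processing settings (circles) and with 1 array left out (triangles). Filled symbols passed at an adjusted p under 0.05. Fgf7 stays between 0.93 and 1.21, Fgfr1 has 1 open circle at 0.13 and Fgfr2 has open triangles at -0.26 and -0.32.

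The other genes of the pathway were read from a list of 79 symbols. Named probe sets covered 71 of them, and 52 genes were above the filter. Of these 52, 21 rose, 17 fell and 14 did not pass, so 73.1% were called, against 65.2% of all tested genes. Their median log2 difference was 0.09, against -0.05. After median centring 13 rose and 18 fell, so 31 of the 52 were called, while 65.2% of all tested genes were.

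Other ligand genes were mostly dim. Of 12 ligand genes outside the members, 4 were above the filter and 1 of these, Fgf23, rose. That is 25% called, against 65.2% of all tested genes. Fgf23, a hormone gene of bone in phosphate control, had 50.9 and 83.3 in SMRTmRID and 4.70 and 18.9 in wild-type cells, a log2 difference of 1.60 ± 0.35 (SE, limma adjusted p = 0.00291). It passed the filter through its SMRTmRID arrays. No gene of the list rose when all probe sets of a gene were averaged, and 2 did without wild-type replicate 2. Fgf13, one of 4 genes of intracellular FGF homologous factors, which do not act as secreted ligands, was below the filter with 1.08 and 0.969 in SMRTmRID and 45.0 and 39.1 in wild-type cells. It fell in the fit without a filter (limma adjusted p = 0.00129), and was named after its values were seen.

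Of 8 genes of the other receptor, co-receptors and FGF-binding proteins, 5 were above the filter and these 5 fell. Over all tested genes 35.0% fell. In the fit without a filter 4 of the 8 fell, as did 3599 of all 18193 genes. There 37.6% of all genes were called in either direction. The remaining 3 (Kl, Klb and Fgfbp1) had log2 differences of 0.25 to 0.53. Fgfr4 and Flrt3 were above the filter only through their wild-type arrays, so their part in the count is no support for it. Fgfr4, the remaining kinase receptor gene, had 32.8 and 27.5 in SMRTmRID and 89.1 and 99.4 in wild-type cells, and fell by 1.26 ± 0.22 on the log2 scale (SE, limma adjusted p = 0.00063). Its arrays stood well apart. Flrt1 and Flrt3, genes of transmembrane proteins that can associate with FGF receptors, had log2 differences of -0.98 and -0.96 (limma adjusted p = 0.000191 and 0.0139). Flrt3 lost its call when SMRTmRID replicate 1 was left out (adjusted p = 0.0739) or wild-type replicate 1 (0.072). Fgfbp3, a gene of a secreted FGF-binding protein, had a log2 difference of -0.61 (limma adjusted p = 0.00986). The fifth gene was Flrt2, at -0.55, which did not pass in the fit without a filter (limma adjusted p = 0.0631). Kl and Klb, the Klotho co-receptor genes of endocrine FGFs, had signals of at most 17.2 and 17.1 on any array and were not tested.

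Heparan sulfate genes went both ways. Of 15 genes of heparan sulfate carriers and enzymes above the filter, 7 rose, 5 fell and 3 did not pass. So 80% were called, against 65.2% of all tested genes. After median centring 3 of the 15 rose and 6 fell, while 65.2% of all tested genes were called. Sulf2 and Sulf1 encode extracellular sulfatases that trim the 6-O-sulfates FGFs bind with their receptors. Sulf2 had 242 and 210 in SMRTmRID and 1217 and 1334 in wild-type cells, and fell by 2.42 ± 0.08 on the log2 scale (SE, limma adjusted p = 2.05e-08). Sulf1 had 196 and 218 in SMRTmRID and 666 and 649 in wild-type cells, a log2 difference of -1.60 (limma adjusted p = 2.53e-07). Both sulfatase genes were thus dimmer on every SMRTmRID array than on any wild-type array. As means over all probe sets of a gene the differences were smaller, at -1.30 for Sulf2 and -1.03 for Sulf1, and both still passed. Among the glypican genes, which encode lipid-anchored carriers, Gpc6 rose by 1.94 and Gpc1 had a log2 difference of -1.55 (limma adjusted p = 1.43e-07 and 4.37e-07). Gpc6 was at 1.14 as the mean over its probe sets.

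Of 12 adaptor and kinase genes downstream of the receptors 5 rose, 3 fell and 4 did not pass. The share called, 66.7%, was near the 65.2% of all tested genes. After median centring 2 of the 12 rose and 3 fell. Sos1, the exchange factor gene that links adaptors to Ras, had 686 and 691 in SMRTmRID and 173 and 175 in wild-type cells. That is a log2 difference of 1.89 ± 0.08 (SE, limma adjusted p = 5.68e-08), and of 0.91 as the mean over all Sos1 probe sets (0.000451). The ERK cascade kinase genes Braf and Map2k2 moved oppositely, with log2 differences of 1.03 and -0.59 (limma adjusted p = 0.000178 and 4.46e-05). Gab1, a docking protein gene, had a log2 difference of -0.63 (limma adjusted p = 0.000461).

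Feedback inhibitors of receptor signalling were mostly higher. Of 9 genes above the filter 6 rose, 1 fell and 2 did not pass, and 6 rose after median centring too. So 77.8% were called, against 65.2% of all tested genes, and 30.3% of all tested genes rose. Spry2, a Sprouty gene that restrains Ras-ERK signalling, had 520 and 485 in SMRTmRID and 141 and 179 in wild-type cells. It rose by 1.56 ± 0.12 (SE, limma adjusted p = 2.25e-06), and by 1.05 as the mean over all Spry2 probe sets (0.000125). Spry1 and Spry4 rose by 1.21 and 1.29 (limma adjusted p = 1.99e-06 and 0.00188). Dusp4, an ERK phosphatase gene below the filter, rose in the fit without one (log2 difference 1.54, limma adjusted p = 0.019). Like Fgf13, Dusp4 was named after its values were seen. The gene that fell was Dusp5, a nuclear ERK phosphatase gene, with 13.0 and 20.7 in SMRTmRID and 146 and 135 in wild-type cells, which fell by 2.26 ± 0.22 on the log2 scale (SE, limma adjusted p = 1.61e-05). Dusp5 was above the filter only through its wild-type arrays and Spry4 only through its SMRTmRID arrays, so their part in the count is no support for it. In the fit without a filter both passed (limma adjusted p = 0.000399 and 0.0111). There 8 of the 10 genes of the list were called, against 37.6% of all genes.

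Transcriptional targets of FGF and ERK signalling were split. Of 7 genes 2 rose, 3 fell and 2 did not pass. The share called, 71.4%, was near the 65.2% of all tested genes. The immediate early gene Fos rose by 0.96 (limma adjusted p = 7.45e-05). Etv5, an ETS factor gene induced by FGF signals, rose by 0.32 (limma adjusted p = 0.0173), but not without SMRTmRID replicate 2 (adjusted p = 0.0922), without wild-type replicate 2 (0.101), after median centring (0.258) or as the mean over its probe sets (0.136). Ccnd1, the cyclin D1 gene, had 951 and 962 in SMRTmRID and 2491 and 2272 in wild-type cells, and fell by 1.30 ± 0.06 on the log2 scale (SE, limma adjusted p = 8.01e-08). Myc had a log2 difference of -0.31 (limma adjusted p = 0.00254). The feedback and target genes also answer to other growth factor receptors, and their link to the FGF members was not tested.

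**Figure D4:**
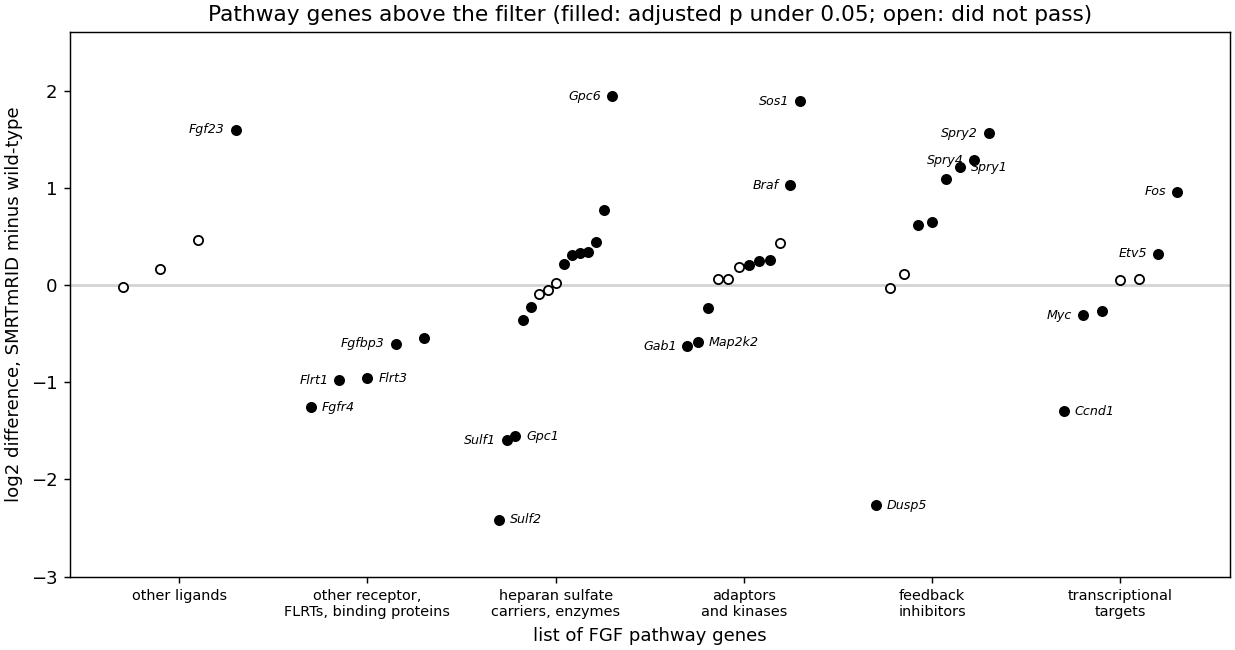
Log2 difference (SMRTmRID minus wild-type) of the 52 pathway genes above the filter, 1 point per gene, by list. Filled points passed at an adjusted p under 0.05 and open points did not. Labelled genes are the called genes with the greatest change in each list. All 5 genes of the list with Fgfr4 lie below 0, while Dusp5 is the one filled point below 0 among the feedback inhibitors.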

How the data were processed

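Total RNA was labelled with biotin and hybridised to 4 single-colour Affymetrix arrays. The deposited intensity values are MAS5 signals per the submitters' processing notes, 1 per probe set on a linear scale. Their 2% trimmed mean was 200.0 on all 4 arrays, a common scaling that precedes deposit; the MAS5 version is not given in the sources used here. Genes were named from GEO's platform annotation, with symbols updated through GRCm38.p6. Probe sets of several genes and 64 control probe sets were left out. A gene's main probe set is the one with the highest mean signal.

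Values were taken as log2(signal + 16) and a linear model was fitted to the 4 arrays (R 4.3.3, limma 3.58.1, moderated with a trend in the variance), with p-values adjusted by Benjamini-Hochberg over 11057 genes. Tests are two-sided. Values were also simulated for these 11057 genes with 200 of them changed, a far smaller share than the 65.2% called in the data. There 58.2% of genes changed 1.5-fold, 86.6% changed 2-fold and 100% changed 4-fold were recovered, and 4.12% of the calls were unchanged genes. These rates depend on the share of changed genes and so do not carry over to the fit above. Precision is limited by the small number of arrays.

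The members and lists were chosen with earlier results of these data known. All members were named, as were up to 4 called genes of greatest change per pathway list, all genes of lists of 3 or fewer, and the 3 genes nearest to Fgf7. Fgf13 and Dusp4 were named outside this rule, after their values were seen. Of the pathway symbols, 8 had no named probe set and were not analysed here, nor was the transcript of the corepressor. The labels do not say that the replicate numbers pair arrays, and same-numbered deviations correlated at 0.012. Alternatives were other pseudocounts (1 and 64), filters, normalizations, probe-set rules, no variance trend, a replicate block and each array left out. Centring over the tested genes, and testing every probe set with each array left out or with median centring, were added after the data were seen. Figures were drawn with matplotlib 3.10.9.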

Additional observations from a re-analysis of the deposited data

How the results depend on the processing

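Fgf7 kept its call under all 15 alternatives, and the number of members called stayed at 2 or 3. With median centring over all probe sets 1 member rose in place of 2, since Fgfr1 did not pass (0.13), Fgfrl1 turned to -0.0029, and 13 pathway genes rose in place of 21. With each array left out in turn, between 0 and 1 member fell, since Fgfr2 lost its call without SMRTmRID replicate 2 or wild-type replicate 1, and Fgf10 (range -0.32 to 0.0691, with 0.04 the other value above 0) and Fgfr3 (range -0.41 to 0.0791) changed sign without passing. In these fits the lone array is assumed to vary like the others. A filter at the 75th signal percentile left 11 pathway genes that fell in place of 17, through fewer genes tested. Without a filter 37.6% of all genes passed in place of 65.2%, and with every probe set tested 12259 probe sets passed in place of 7213 genes. The replicate block changed no call of a member: 3 were called, and Fgf7 stayed at 1.10. The causes of the other changes were not tested. Values of named genes and of single lists under the alternatives were also tallied. Of these, 545 were kept, meaning direction and call for a gene or a count within 1.5 times for a list. Of the rest, 9 lost the call, 12 counts moved by over 1.5 times and 4 changed sign. Counts over the members, the whole pathway list and all genes are not in this tally. For Fgf1, Fgf18 and Fgf21 the arrays of the 2 genotypes overlapped. With a pseudocount of 64 the differences of Fgf23, Fgfr4, Flrt3, Spry4 and Dusp5 were smaller by over 1.5 times and passed.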
